A study of Homo sapiens with 4 samples.

Results

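The 39 mRNAs described here encode ATP-dependent chromatin remodellers of the SWI/SNF, ISWI, CHD and INO80 families, their signature subunits, and 5 further remodellers. These 5 are grouped here as single-protein remodellers, although ATRX and HELLS have partners, DAXX and CDCA7. All 39 were chosen by gene name and not by a measured value, but with earlier results of these data known. Each matched 1 row of the 63677 genes in the count table. Of the 39, 20 encode an ATPase and 19 a subunit.

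Chromatin remodellers are molecular motors of the SNF2 type. They spend ATP to slide nucleosomes along DNA, to evict them or to exchange their histones, and so decide which stretches of DNA other proteins can reach. SWI/SNF complexes open chromatin, ISWI enzymes space nucleosomes evenly, CHD enzymes carry chromodomains next to the motor, and INO80-type enzymes work on the histone variant H2A.Z. Replication origins lie in chromatin that has to be opened in the same way, and ORC1, a subunit of the complex that recognises origins, marks where replication can start.

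RNA was sequenced from nuclei of asynchronous HCT116 cells, a human colorectal carcinoma line. All 4 libraries, Inputs included, came from cells transfected for 48 h with the plasmid pcDNA3.1-ORC1-3xFLAG, which carries a codon-optimized ORC1 cDNA with a FLAG tag, so expression was transient and added to the endogenous ORC1. The 2 ORC1-FLAG IP libraries hold RNA precipitated from nuclear lysates with the FLAG antibody M2, without crosslinking, and the 2 Input libraries hold RNA of the same lysates with no antibody. No library of a control antibody or of untransfected cells was analysed here, so RNA that sticks to beads or antibody was not measured apart from RNA held by ORC1-FLAG. The study reports no detectable RNA with control IgG beside its precipitation of endogenous ORC1. It also reports negligible RNA when untransfected cells were precipitated with anti-Flag after crosslinking.

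Library totals were 27483148 and 20280445 counts in the IP replicates 1 and 2, and 14677002 and 9213877 in the Inputs. Counts were scaled to counts per 1000000 (CPM) with the trimmed mean of M values (TMM), and edgeR tested 14645 genes. A gene was called enriched where its log2 fold change of IP to Input was above 1 with an adjusted p below 0.05, and depleted where it was below -1. Of the epithelial markers, KRT8, KRT18, EPCAM and CDH1 were present in all 4 libraries, while CDH17 and VIL1 had at most 6 counts in any. The summed level of the 6 was 3044 and 2582 CPM in the IPs and 1559 and 1589 CPM in the Inputs. Of 8 markers of blood, endothelium and fibroblasts, 7 had at most 2 counts in any library, and the eighth, COL1A1, had 126 to 470.

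The sequences below are GAA runs of 4 remodeller mRNAs with many copies of GAA in runs of at least 3. In the longest transcript, CHD4 holds 14 such copies, CHD3 holds 12, and BAZ2B and CHD1 hold 10 each, a number that CHD6 also reaches. Among equals the first by name were taken. SMARCA2 holds 3 in its longest transcript but 12 in its canonical one, which was not used for the choice. The runs are shown because tandem GAA is the sequence that the study describes in RNAs bound by ORC1. From crosslinking (iCLIP) peak positions and like gel shifts with and without GAA, the study reports that binding does not go through this sequence. Enrichment was not used in the choice, though these 4 mRNAs were all called enriched. Each is a window of 30 bases of the longest transcript in GENCODE v44, in the sense direction, with the run in capitals.
CHD4: cctggcaaGAAGAAGAAGAAGAAgcttgga
CHD3: gccaggaagGAAGAAGAAGAAggtcctggg
BAZ2B: gaagaagatGAAGAAGAAGAAgatcaaagt
CHD1: agacgattaGAAGAAGAAGAAagacaaaag

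On GRCh38, the CHD4 run lies at chr12:6602042-6602056 on the minus strand, in exon 4 of 40, and the CHD3 run at chr17:7894252-7894263 on the plus strand, in exon 7 of 40. The BAZ2B run lies at chr2:159439084-159439095 on the minus strand, in exon 7 of 37, and the CHD1 run at chr5:98879612-98879623 on the minus strand, in exon 23 of 37. All 4 are in coding sequence. The reading frame turns the same letters into different residues: the CHD4 and CHD3 runs are read as AAG codons, which encode lysine, and the BAZ2B and CHD1 runs as GAA codons, which encode glutamate.

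Most remodeller mRNAs were more abundant in the ORC1-FLAG IP than in Input. edgeR called 28 of the 39 enriched (71.8%) and none depleted, where it called 10.5% of all genes tested enriched and 8.3% depleted. No remodeller had an unadjusted p below 0.05 with a fall, and DESeq2 and limma voom also called 0 depleted. The median log2 fold change of the 39 was 1.63, against 0.01 over all genes tested. The median of the replicate ratios was 1.39 in replicate 1 and 1.74 in replicate 2. Both IP libraries lay above both Inputs for 33 of the 39, where 33.3% of all genes tested did so, and the log2 ratio was above 1 in both replicates for 26 of them, against 9.04% of all genes.

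**Figure D1:**
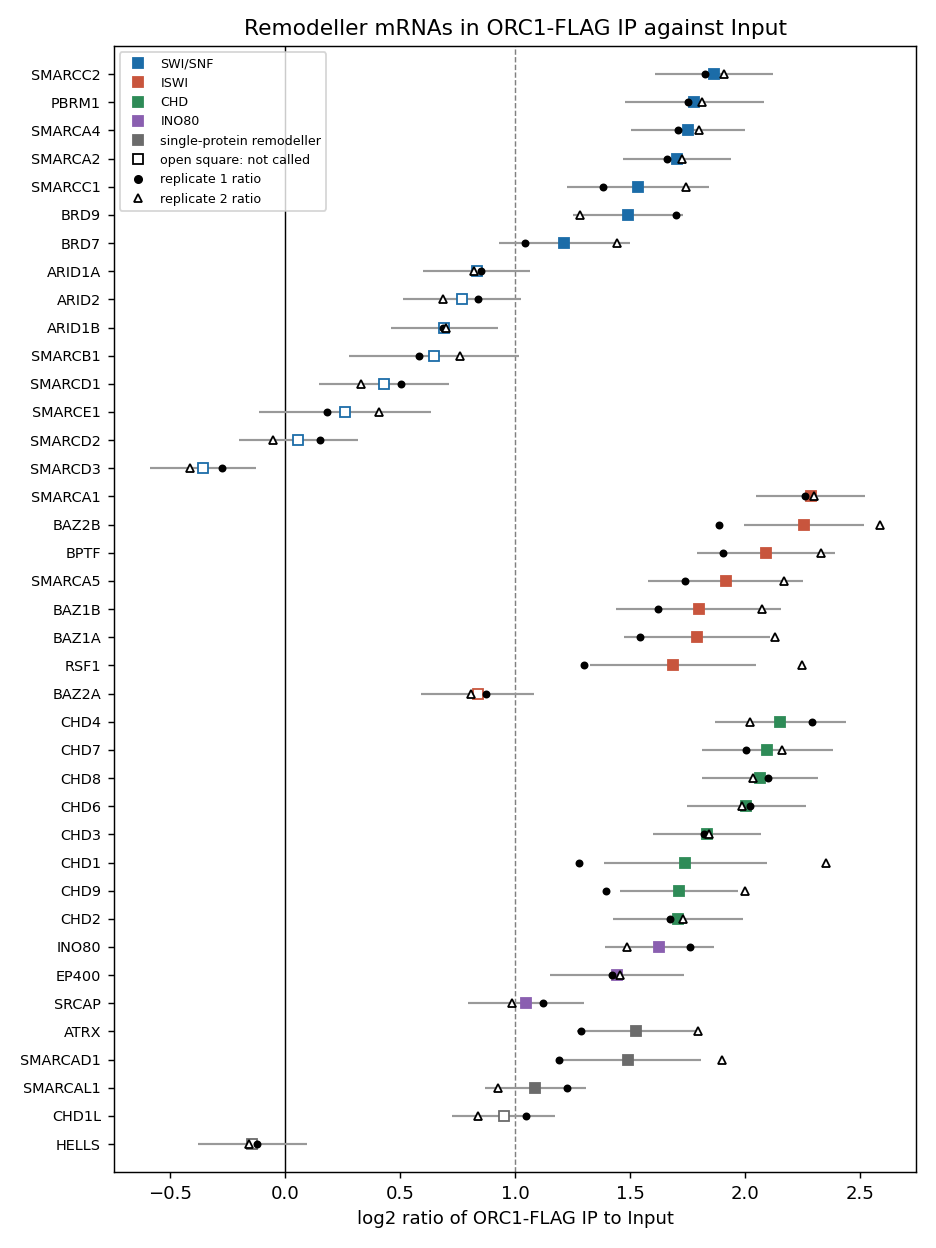
Log2 ratio of ORC1-FLAG IP to Input for the 39 remodeller mRNAs, grouped by family. Squares give the edgeR log2 fold change with its SE (n = 2 per group), filled where called enriched, and the small symbols give the ratio in each replicate. All 8 CHD mRNAs lie above the dashed line at 1, while 8 of the 15 SWI/SNF mRNAs lie below it.

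The families differed in how many of their mRNAs were called. All 8 CHD mRNAs were enriched, with a median log2 fold change of 1.92, and 7 of the 8 ISWI mRNAs, with a median of 1.86. All 3 mRNAs of the INO80 family were enriched, with a median of 1.44, and 3 of the 5 single-protein remodellers, with a median of 1.09. SWI/SNF was the family with the lowest share, with 7 of 15 enriched and a median of 0.83. By role, 18 of the 20 ATPase mRNAs were enriched (median 1.71) and 10 of the 19 subunit mRNAs (median 1.22). These are counts over named lists, and the differences between families were not tested. The families also differed in coding length. Every CHD and INO80 mRNA of the list had more than 4500 coding bases, where 54.3% of all tested protein-coding genes were enriched. The SWI/SNF mRNAs had a median of 3315 coding bases and a minimum of 1155, and fewer genes were enriched at shorter lengths, down to 3.45% under 1500 bases.

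The ISWI family held the highest value of all. SMARCA1, one of its pair of alternative motors, lies on chromosome X. Its mRNA stood at 272 and 261 CPM in IP replicates 1 and 2 and at 56.5 and 52.6 CPM in the matching Inputs. The IP libraries were close to each other and far above both Inputs. The log2 fold change was 2.29 ± 0.24 (SE, n = 2 per group, edgeR adjusted p = 0.0105), higher than that of 99.6% of all genes tested. SMARCA5, the other motor and the catalytic subunit of most ISWI complexes, had the higher CPM at a like coding length, with 1068 and 866 in IP against 319 and 192 in Input. The log2 fold change was 1.92 ± 0.34 (edgeR adjusted p = 0.0137). The ratio of SMARCA1 exceeded that of SMARCA5 by 0.52 in replicate 1 and by 0.13 in replicate 2, both on the log2 scale.

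The ISWI partner subunits carry bromodomains or PHD fingers and direct the motor to its sites. BAZ2B, the noncatalytic subunit of an ISWI complex, was low in Input, at 25.8 and 20.2 CPM, and stood at 96.7 and 124 CPM in IP (log2 fold change 2.26 ± 0.26, edgeR adjusted p = 0.0105). BPTF, the largest subunit of the nucleosome remodelling factor NURF, was at 725 and 650 CPM (IP) against 193 and 129 CPM (Input) (2.09 ± 0.30, edgeR adjusted p = 0.0107). Neither gene had an IP library near its Inputs. BAZ1B, a subunit of the WICH complex found at replication foci, was at 1232 and 950 CPM (IP) against 401 and 225 CPM (Input) (1.80 ± 0.36, edgeR adjusted p = 0.0179). BAZ1A, the partner of SMARCA5 in the ACF complex, was at 420 and 374 CPM (IP) against 144 and 85.0 CPM (Input) (1.79 ± 0.32, edgeR adjusted p = 0.0141). In both genes replicate 1 was the higher in IP and in Input, and no IP library overlapped an Input. RSF1, the histone chaperone subunit of the RSF complex, had a log2 fold change of 1.69 ± 0.36, with a ratio of 1.30 in replicate 1 and 2.25 in replicate 2.

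BAZ2A was the 1 ISWI mRNA not called. It encodes the subunit that recruits SMARCA5 to ribosomal RNA genes. It stood at 382 and 419 CPM (IP) against at 208 and 239 CPM (Input), so the groups did not overlap. Its log2 fold change of 0.84 ± 0.25 (edgeR adjusted p = 0.0491) was below the minimum of 1. Its relative BAZ2B had the higher ratio by 1.01 in replicate 1 and 1.78 in replicate 2, the widest gap between any pair of paralogs here. The coding lengths of the pair, 6504 bases for BAZ2B and 5709 bases for BAZ2A, were similar.

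The CHD family was the one with the most uniform values. CHD4, the main motor of the NuRD deacetylase complex, had the highest CPM of all 39 in every library, with no correction for length, at 2521 and 2373 CPM (IP) against 514 and 584 CPM (Input). Its log2 fold change was 2.15 ± 0.28 (edgeR adjusted p = 0.0105). CHD3, which takes its place in some NuRD complexes, was at 273 and 256 CPM (IP) against 76.7 and 71.1 CPM (Input) (1.84 ± 0.24, edgeR adjusted p = 0.0105). The ratio of CHD4 was above that of CHD3 by 0.47 and 0.18 in the 2 replicates.

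CHD7, mutated in CHARGE syndrome, was at 258 and 357 CPM (IP) against 64.0 and 79.5 CPM (Input), a log2 fold change of 2.10 ± 0.28 (edgeR adjusted p = 0.0105). CHD8, a regulator of beta-catenin target genes that is often mutated in autism, was at 516 and 558 CPM (IP) against 120 and 136 CPM (Input) (2.07 ± 0.25, edgeR adjusted p = 0.0105). CHD6, a less studied member of the same subfamily, was at 282 and 336 CPM (IP) against 69.1 and 84.4 CPM (Input) (2.01 ± 0.26, edgeR adjusted p = 0.0105). The log2 fold changes of these 3 relatives lay within 0.09 of each other, and the order of CHD7 against either of the others changed between replicates. CHD9, the fourth of that subfamily, was at 161 and 213 CPM (IP) against 60.8 and 52.9 CPM (Input) (1.71 ± 0.26, edgeR adjusted p = 0.0109).

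CHD1, which binds methylated histone H3 at active promoters, was at 415 and 455 CPM (IP) against 171 and 88.8 CPM (Input) (1.74 ± 0.35, edgeR adjusted p = 0.0185). CHD2, its closest relative, was at 350 and 468 CPM (IP) against 109 and 140 CPM (Input) (1.71 ± 0.28, edgeR adjusted p = 0.0130). The fitted values of the pair were alike, but the replicates put them in opposite order. The log2 ratio of CHD1 minus that of CHD2 was -0.40 in replicate 1 and 0.62 in replicate 2.

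**Figure D2:**
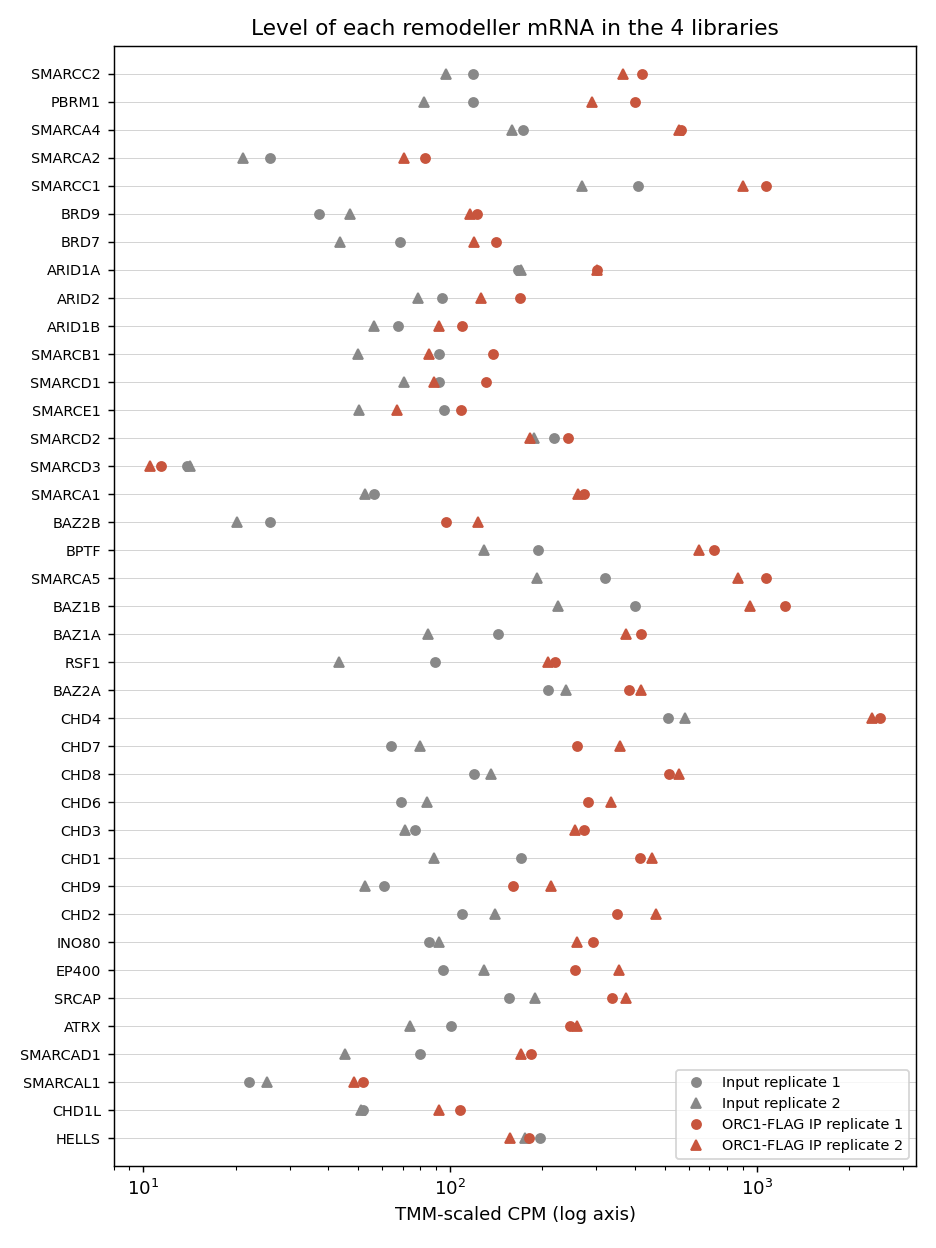
TMM-scaled CPM of the 39 mRNAs in each of the 4 libraries, on a log axis, in the same order as the plot of ratios. CHD4 lies farthest right in IP and Input, and the IP and Input symbols mix for SMARCB1, SMARCD1, SMARCE1, SMARCD2 and HELLS.

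SWI/SNF held both strongly enriched and uncalled mRNAs. Its motors and scaffold subunits were called, along with PBRM1, BRD9 and BRD7. SMARCA4, the ATPase used in most SWI/SNF complexes, was at 565 and 557 CPM (IP) against 173 and 159 CPM (Input), a log2 fold change of 1.75 ± 0.25 (edgeR adjusted p = 0.0107). SMARCA2, the alternative ATPase, was far less abundant, at 82.6 and 70.9 CPM (IP) against 25.8 and 21.1 CPM (Input), yet its log2 fold change was 1.71 ± 0.24 (edgeR adjusted p = 0.0105). The ratios of this pair differed by only 0.05 and 0.08 in the 2 replicates. SMARCC2 and SMARCC1 form the scaffold on which the complex is built. SMARCC2 was at 421 and 365 CPM (IP) against 118 and 96.8 CPM (Input) (1.87 ± 0.26, edgeR adjusted p = 0.0105), and SMARCC1 at 1074 and 904 CPM (IP) against 411 and 270 CPM (Input) (1.54 ± 0.31, edgeR adjusted p = 0.0185). SMARCC2 had the higher ratio in both replicates, by 0.44 and 0.17.

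PBRM1, BRD7 and ARID2 define the PBAF form of the complex, and only the first and second of them were called. PBRM1 was at 401 and 291 CPM (IP) against 118 and 82.4 CPM (Input) (1.78 ± 0.30, edgeR adjusted p = 0.0132). BRD7 was at 142 and 119 CPM (IP) against 68.5 and 43.6 CPM (Input) (1.22 ± 0.29, edgeR adjusted p = 0.0270). Where 1 library is left out, its group holds a single library, and the fit takes the spread from the other group and assumes that the lone library varies alike. Without Input replicate 2 the BRD7 value was 0.78 and no longer called. In addition, 41.9% of the exonic bases of BRD7 lie opposite exons of other genes, ADCY7 among them, and reads of the 2 strands cannot be told apart where counting ignores strand. ARID2 was at 169 and 126 CPM (IP) against 94.2 and 78.4 CPM (Input), a log2 fold change of 0.77 ± 0.26 (edgeR adjusted p = 0.0703). A fit with a term for the replicate (replicate block) gave ARID2 0.76 (edgeR adjusted p = 0.000995), still below the minimum of 1.

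BRD9, the bromodomain subunit of the noncanonical complex, was at 122 and 116 CPM (IP) against 37.3 and 47.2 CPM (Input) (1.49 ± 0.24, edgeR adjusted p = 0.0120). At 1791 coding bases it was the shortest remodeller mRNA called enriched. ARID1A and ARID1B, which define the canonical BAF complex, were both long and both uncalled. ARID1A was at 302 and 302 CPM (IP) against 167 and 171 CPM (Input), and ARID1B at 109 and 92.0 CPM (IP) against 67.5 and 56.4 CPM (Input). Their IP libraries lay above both Inputs, with log2 fold changes of 0.83 ± 0.23 (edgeR adjusted p = 0.0423) and 0.69 ± 0.23 (edgeR adjusted p = 0.0726). With the replicate block these were 0.83 and 0.69 (edgeR adjusted p = 0.000533 and 0.00159).

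The small core and accessory subunits were not called, and their IP and Input levels mostly overlapped. SMARCB1, the core subunit lost in rhabdoid tumours, was at 138 and 85.1 CPM (IP) against 92.1 and 50.0 CPM (Input) (0.65 ± 0.37, edgeR adjusted p = 0.241). Without Input replicate 1 its value was 1.19 and it was called (edgeR adjusted p = 0.00796). SMARCE1, which carries a DNA-binding HMG domain, was at 109 and 67.0 CPM (IP) against 95.7 and 50.4 CPM (Input) (0.26 ± 0.37, edgeR adjusted p = 0.644). In both genes the replicates differed more in level than IP from Input. Within each replicate the IP lay above its Input, with log2 ratios of 0.58 and 0.76 for SMARCB1 and 0.18 and 0.41 for SMARCE1. The fit with a replicate block gave 0.67 for SMARCB1 (edgeR adjusted p = 0.00237) and 0.29 for SMARCE1 (edgeR adjusted p = 0.138), both below the minimum of 1.

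The paralogs SMARCD1, SMARCD2 and SMARCD3 take the same place in the complex as alternatives. SMARCD1 was at 131 and 88.9 CPM (IP) against 92.0 and 70.7 CPM (Input), and SMARCD2 at 242 and 182 CPM (IP) against 218 and 188 CPM (Input). Both pairs of groups overlapped, with log2 fold changes of 0.43 ± 0.28 and 0.06 ± 0.26 (edgeR adjusted p = 0.301 and 0.893). With the replicate block these were 0.42 and 0.05 (edgeR adjusted p = 0.0389 and 0.829). SMARCD3, at 11.4 and 10.5 CPM (IP) against 13.9 and 14.1 CPM (Input), had both IP libraries below both Inputs, as did 31.7% of all genes tested, and the lowest log2 fold change of the 39, at -0.36 ± 0.23 (edgeR adjusted p = 0.296). The ratios kept 1 order in both replicates: SMARCD1 was above SMARCD2 by 0.36 and 0.38, and SMARCD2 above SMARCD3 by 0.42 and 0.36. With counts scaled by library size alone, the values of SMARCD1, SMARCE1 and SMARCD2 turned negative, at -0.18, -0.35 and -0.55.

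In the INO80 family, the motor INO80 was at 291 and 258 CPM (IP) against 85.5 and 91.8 CPM (Input) (log2 fold change 1.63 ± 0.24, edgeR adjusted p = 0.0108). EP400, the motor of the TIP60 acetyltransferase complex, was at 256 and 354 CPM (IP) against 95.0 and 129 CPM (Input) (1.44 ± 0.29, edgeR adjusted p = 0.0185). SRCAP, which deposits H2A.Z, was at 338 and 375 CPM (IP) against 155 and 189 CPM (Input) (1.05 ± 0.25, edgeR adjusted p = 0.0278). It was the longest of the 39, at 9690 coding bases, and the lowest of those called. SRCAP was no longer called without Input replicate 1 (0.95) or without IP replicate 2 (1.02, edgeR adjusted p = 0.0652).

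Of the single-protein remodellers, ATRX, which deposits histone H3.3 at repeats, was at 246 and 259 CPM (IP) against 100.4 and 74.1 CPM (Input) (1.53 ± 0.26, edgeR adjusted p = 0.0132). SMARCAD1, which restores silent chromatin after replication, was at 183 and 171 CPM (IP) against 79.9 and 45.4 CPM (Input) (1.49 ± 0.31, edgeR adjusted p = 0.0200), and at 1.00 without Input replicate 2 it fell just short of the call. SMARCAL1, which anneals DNA at stalled replication forks, was at 52.2 and 48.6 CPM (IP) against 22.0 and 25.3 CPM (Input) (1.09 ± 0.22, edgeR adjusted p = 0.0185). Its call was lost without IP replicate 1 (1.08), where the adjusted p just missed the threshold.

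CHD1L and HELLS were the ATPases not called. CHD1L, which is switched on by poly(ADP-ribose) at DNA breaks, was at 108 and 91.8 CPM (IP) against 52.0 and 51.2 CPM (Input) (0.95 ± 0.22, edgeR adjusted p = 0.0265). It passed once IP replicate 2 (1.12) or Input replicate 1 (1.00) was left out, and 63.2% of its exonic bases are shared with another annotated gene on the same strand. HELLS, which is needed for DNA methylation of repeats, was at 181 and 157 CPM (IP) against 197 and 175 CPM (Input). The groups overlapped, and the log2 fold change was -0.14 ± 0.24 (edgeR adjusted p = 0.698).

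Levels in Input per kilobase of exonic length bore little relation to the ratio. Per kilobase of exonic length, the mean Input level was highest for SMARCC1, at 44.7 ± 13.1 CPM per kilobase (SD, n = 2), BAZ1B, at 44.3 ± 17.5, and CHD4, at 43.2 ± 3.85, which do not differ beyond their spread. It was lowest for BAZ2B, at 1.14 ± 0.20 CPM per kilobase, SMARCA2, at 1.23 ± 0.17, and ARID1B, at 1.35 ± 0.17, which do not differ beyond their spread either. BAZ2B and SMARCA2 of the lowest and all 3 of the highest were called enriched. These ranks hold for exonic length, which joins the exons of all isoforms and can far exceed a single transcript. It is 14231 bases for HELLS and 5898 for SMARCD2, whose canonical transcripts have 3128 and 2464 bases, and neither was called. The order of Input levels under another length was not tested. Across the 39 mRNAs, Input level per kilobase and log2 fold change had a Spearman correlation of 0.07, as a description over genes measured in the same 4 libraries.

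Coding length moved with the ratio among the remodellers and among all genes. The median coding length of the 39 was 4770 bases, against 1431 bases for all tested protein-coding genes. It was 5026.5 bases for the 28 called enriched and 2514 for the 11 not called. The Spearman correlation of coding length with log2 fold change was 0.47 across the 39 and 0.59 across 12542 tested protein-coding genes. Total exonic length, which includes untranslated exons and all isoforms, had a weaker one across the 39, at 0.10.

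**Figure D3:**
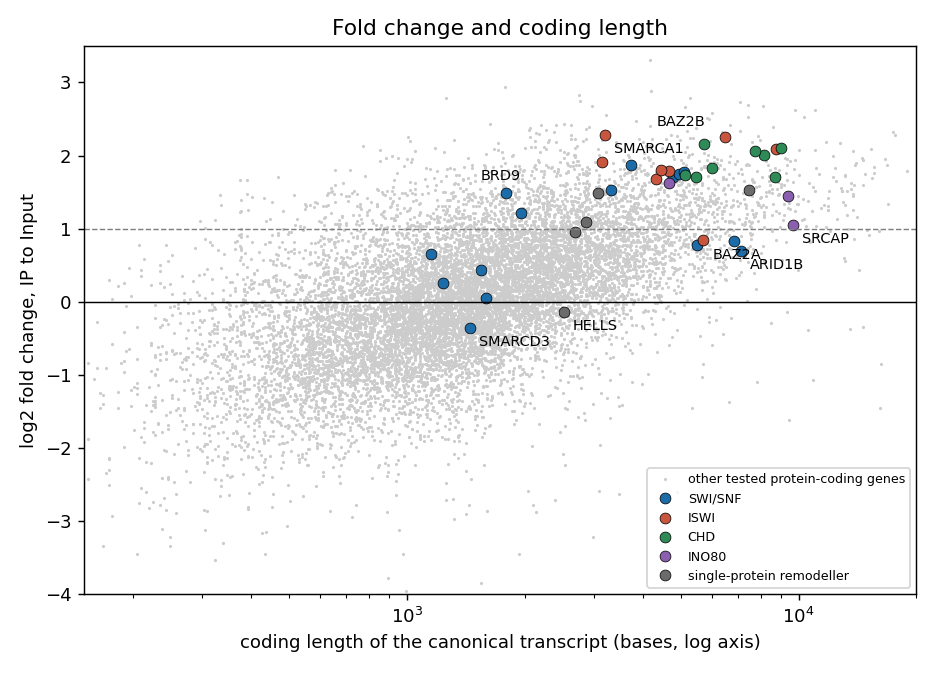
Log2 fold change of IP to Input against coding length of the canonical transcript, on a log axis, for tested protein-coding genes (grey) and the 39 remodellers (coloured by family). Over the full range values rise with length in both, but not among the remodellers of 3000 coding bases or more (Spearman -0.05). SMARCB1, SMARCE1 and the SMARCD mRNAs lie low at the left, with the short BRD9 and BRD7 above them. BAZ2A, ARID1B and SRCAP lie low among the long mRNAs.

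Within length bands, the remodellers were called more often than other protein-coding genes in 3 of 4 bands. Under 1500 coding bases, 0 of 3 were enriched, where 3.45% of all protein-coding genes in the band were. From 1500 to under 3000 bases, 3 of 7 were enriched, against 13.1%. From 3000 to under 4500 bases all 7 were enriched, against 28.7%, and from 4500 bases on 18 of 22, against 54.3%. Above 3000 bases the length no longer ordered the values: across those 29 mRNAs the Spearman correlation was -0.05. The 4 long mRNAs not called were BAZ2A, ARID1A, ARID1B and ARID2, and the 3 short ones called were BRD9, BRD7 and SMARCAL1. The part of length in the enrichment of single mRNAs was not tested.

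**Figure D4:**
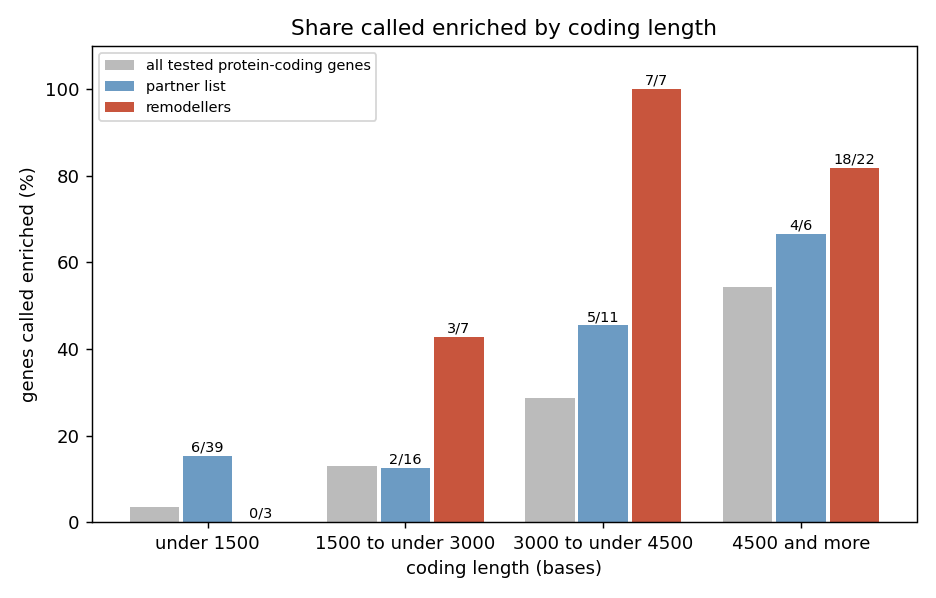
Share of genes called enriched in 4 bands of coding length, for all tested protein-coding genes (grey), the list of partner subunits and other SNF2-type ATPases (blue) and the 39 remodellers (red). The numbers over the bars are genes called of genes tested, and the grey bars rise from 3.45% to 54.3%.

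The GAA runs printed above were common among these mRNAs. The sequence GAAGAAGAA was searched in the sense direction in the longest annotated transcript, and 24 of the 39 held it (61.5%), where 13.6% of 14265 tested genes did. Among the mRNAs of 3000 coding bases or more it was held by 23 of 29, against 31.3% of tested genes of that length. The reverse complement TTCTTCTTC was held by 8 of the 39 (20.5%), against 5.29% of tested genes, and by 7 of the 29 long ones, against 10.3%. A match is a description of the letters and not a binding site. The motif was described by the study from RNAs that include those of these libraries, so its presence in enriched mRNAs is not independent evidence.

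In the longest transcripts, GAAGAAGAA was held by 22 of the 28 enriched remodeller mRNAs and by 2 of the 11 others, ARID1A and HELLS. In canonical transcripts 25 of the 39 held it, against 13.8% of tested genes, with 23 of the 28 enriched and 2 of the 11 others. The added mRNA is BRD9, whose longest transcript has no annotated coding sequence and whose canonical one holds a run of 5 copies. Among the 29 long mRNAs, the 23 with the motif had a median log2 fold change of 1.78 and 22 of them were enriched, while the 6 without had a median of 0.94 and 3 were enriched. Over all tested genes of that length, the medians were 1.22 with the motif and 0.82 without, and 55.1% and 31.5% were enriched. The number of runs of at least 2 copies per kilobase of the canonical transcript had a Spearman correlation of 0.64 with the log2 fold change across the 39. Of 49 runs of at least 3 copies in the canonical transcripts, 48 lay in coding sequence, 29 of them read as GAA codons and 19 as AAG codons, and 1 in an untranslated region.

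The replicates ordered the mRNAs alike, with a Spearman correlation of 0.79 between their log2 ratios across the 39. Replicate 2 gave the higher ratio for 24 of the 39, against 43.8% of all genes tested. Among the 18 pairs of paralogs, 12 had the same order in both replicates. Only BAZ2B over BAZ2A and SMARCD1 over SMARCD3 differed by more than 0.5 in both. With 2 replicates the smallest exact two-sided p for such a difference is 0.5, so these differences were not tested. Near-identical paralogs can also share reads, and how multiply aligned reads were handled is not given in the sources used here. Exons of other genes lie opposite 28.4% of the exonic bases of SMARCD3 and 17.7% of those of SMARCB1, and between 10.2% and 12.4% of those of CHD4, SMARCA5 and BAZ1A. A further 18.9% of those of SMARCE1 are shared with a gene on the same strand.

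**Figure D5:**
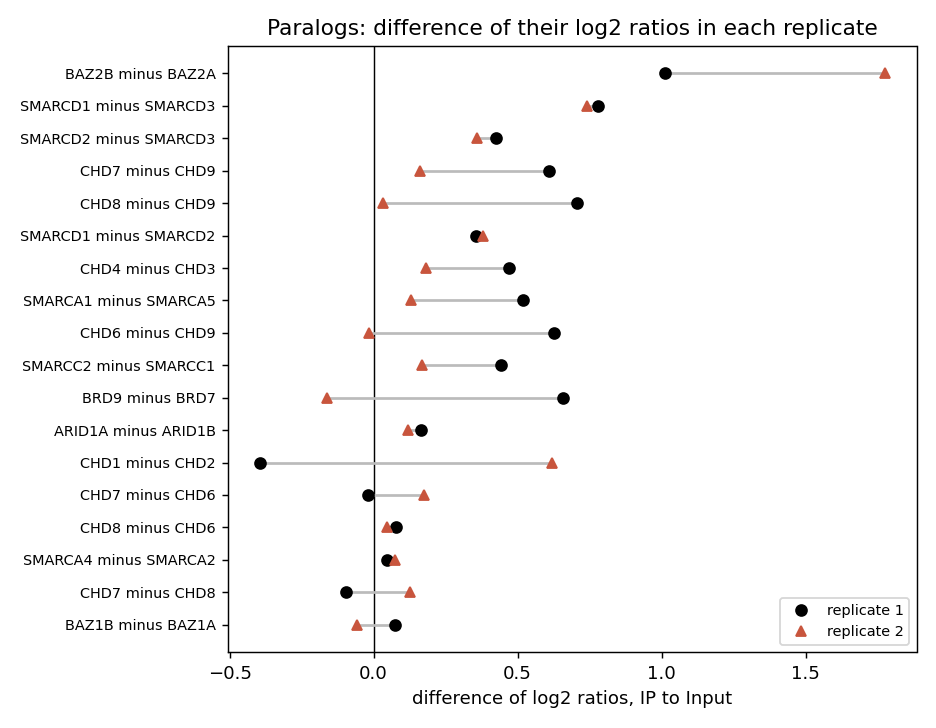
Difference between the log2 ratios of IP to Input of paralogous remodeller mRNAs, in replicate 1 (circles) and replicate 2 (triangles). The gap between BAZ2B and BAZ2A is the widest, at 1.01 and 1.78, and that between CHD1 and CHD2 crosses zero.

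The other genes of the same complexes were described with a list of 74 genes. Of these partner subunits and further SNF2-type ATPases, 72 were tested, with 17 enriched (23.6%), 2 depleted and a median log2 fold change of 0.56, where 10.5% of all genes tested were enriched and 8.3% depleted. The difference between the partners and the 39 remodellers was not tested. With counts scaled by library size alone, 3 were enriched and 7 depleted, while 20 of the 28 enriched remodellers remained enriched and 0 were depleted, where that scaling called 2.59% of all genes enriched and 22.2% depleted. The further SNF2-type ATPases include translocases of DNA repair and transcription, and CHD5, a CHD-family remodeller that is not among the 39. Of these 12, 7 were enriched, among them ERCC6L at 1.73 ± 0.33 and CHD5 at 1.72 ± 0.24. The partner subunits of INO80, SRCAP or TIP60 had 7 of 29 enriched, from BRD8, a bromodomain subunit of the TIP60 complex, at 1.78 ± 0.26 down to INO80B at 1.04. The same set held both depleted genes, the deubiquitinase UCHL5 at -1.18 and ZNHIT1, which joins SRCAP, at -1.12. UCHL5 was not called without IP replicate 1 (-0.90) or Input replicate 1 (-0.78), nor ZNHIT1 without either IP replicate (-1.11 and -1.03, edgeR adjusted p = 0.0658 and 0.0548). Leaving out 1 library at a time gave 12 to 21 enriched partners, the 12 without Input replicate 2 or IP replicate 1, and INO80B was lost without IP replicate 1 (0.86), Input replicate 1 (0.97) or Input replicate 2 (1.00).

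Few accessory subunits of the other complexes were called, and the sets are small. None of 13 tested SWI/SNF partners was enriched, with a median log2 fold change of 0.13, and none of 4 ISWI partners. Most of these mRNAs are short, and at the 3.45% called among all protein-coding genes under 1500 coding bases such counts are near the background. In NuRD, the deacetylases HDAC1 and HDAC2 were called of 12 subunits, in a complex whose motors CHD4 and CHD3 both were. CDK2AP1 had the lowest value of all partners, at -1.33 ± 0.46 (edgeR adjusted p = 0.0759), and was called depleted in the fit with a replicate block (-1.26, edgeR adjusted p = 3.67e-05). DAXX, the partner of ATRX, was called at 1.14, and CDCA7, the partner of HELLS, was not, at 0.18. These partners are short, with a median coding length of 1423.5 bases, and their correlation of length with log2 fold change was 0.57 across 72 genes.

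The methods describe the FLAG precipitations as repeated experiments. With 2 libraries per group, the p-values rest on the spread between these libraries, with the dispersion of each gene drawn toward that of all genes tested. Ratios of IP to Input are relative to the other RNAs of a library, and in bulk libraries a difference in the number of cells with an RNA and one in RNA per cell cannot be told apart.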

How the data were processed

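RIP-seq counts of 2 ORC1-FLAG IP and 2 Input libraries were used. The authors deposited raw counts, 1 whole number per gene and library, made with Trimmomatic, STAR and featureCounts on hg19 with an Ensembl annotation, after reads on GL contigs were removed. The annotation release, the strand setting and the handling of multiply aligned reads are not given in the sources used here. GENCODE v44 on GRCh38, another build, gave lengths, coordinates and sequences, and was joined by Ensembl identifier. All 39 remodellers matched. Motif shares are over the 14265 tested genes that matched.

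The test was the quasi-likelihood test of edgeR 4.0.16 in R 4.3.3, with robust dispersions, TMM scaling, filterByExpr and group as the only term, over 14645 genes with Benjamini-Hochberg adjustment. Standard errors were the fold change over the root of the F statistic. The script was tested on simulated counts with known changes. For replicate ratios, 0.5 was added to each TMM-scaled CPM. Coding length is that of the canonical transcript. Reads carry no molecular identifiers.

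The labels tie each Input to the RIP replicate of its number, and same-numbered libraries deviated together (Pearson r = 0.645 over 14645 genes), so the numbers were taken as pairing. Alternatives were a replicate block, RLE, library size only and upper-quartile scaling, 2 other count filters, DESeq2 1.42.0, limma 3.58.1 with voom, each library left out, and other pseudocounts, transcripts and copy numbers of GAA. Alternatives for paralogs, length and named partners were chosen after seeing the data.

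The members and lists were chosen with earlier results of these data known. Values in every library were given for the 16 enriched members with the largest fold change, all paralogs and the 3 highest and lowest, and for other members as space allowed. Of the partners, the 3 highest and 3 lowest called were named, and DAXX, CDCA7, HDAC1, HDAC2 and CDK2AP1 were named after their values were seen. No sequence window was drawn for CHD7.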

Additional observations from a re-analysis of the deposited data

How the results depend on the processing

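Of the 28 enriched remodellers, 20 were called under all 12 other fits, and 0 were depleted in any. The fit with a replicate block for the pairing called 28 enriched and 0 depleted, changed no remodeller's call, and gave 17 enriched and 3 depleted partners. Library size alone moved all log2 fold changes by a median of -0.60. It gave 20 enriched remodellers with a median of 1.02, of which 0 had under 3000 coding bases, replicate medians of 0.75 and 1.19, and 3 enriched and 7 depleted partners with a median of -0.0524. SMARCD1, SMARCE1 and SMARCD2 then turned to -0.18, -0.35 and -0.55. Upper-quartile scaling gave 26 enriched remodellers, -0.12 for SMARCD2, and 4 depleted partners with a median of 0.38. The partner count was also 4 depleted with no count filter. Which property of a scaling moved each value was not tested.

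Leaving out 1 library at a time, which leaves a group with a lone library assumed to vary like the other group, gave 26 to 29 enriched remodellers with a median of 1.29 to 1.85, 2 to 5 enriched under 3000 coding bases, a length correlation of 0.28 to 0.58, and 1 to 4 depleted partners with a median of 0.29 to 0.70. SMARCE1 ranged from -0.28 to 0.84 and was negative without IP replicate 1 (-0.09) or Input replicate 2, as was SMARCD2 (-0.12 and -0.19), which ranged to 0.30. HELLS ranged from -0.37 and was at 0.00491 without IP replicate 2. A pseudocount of 2 CPM gave mean differences of 0.72 for SMARCD1 over SMARCD3 and 0.11 for SMARCA4 over SMARCA2. Of the 39 longest transcripts, 38 held 2 copies of GAA in a row and 8 held 4. SMARCD3 had the fewest counts of the remodellers, at 166 to 243 per library, and depth as a limit was not tested.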
